A study of Mus musculus with 8 samples.

Results

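The AP-1 family was followed across 8 microglial arrays through 9 listed genes: Fos, Fosb and Fosl2 of the FOS subfamily, Jun, Junb and Jund of the JUN subfamily, Atf3 and Batf of the ATF and BATF group, and Maff of the small MAF group. The members were chosen by gene symbol from the known subfamilies, with earlier results of these data known. Of the 9, 8 had a probe set of their own among 30713 named genes. The probe set that carries Junb also carries Prdx2, so no level is given for Junb. Testing required a signal over the 50th percentile of the named genes on 1 array or more, a line that 18241 genes and 6 members passed. Fosl2 and Maff fell below that line on all 8 arrays and were described by their values only.

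The arrays measured RNA of microglia, the macrophages resident in brain and spinal cord, from C57Black/6J mice. Each of the 8 groups held 1 array, crossing 2 genotypes with 4 states. The icKO mice carry a conditional knockout that the series title places in oligodendroglia. The control mice are labelled FL, or F/F on the p50 array, and 1 source label calls them wt. The states were EAE p50, EAE IGU, EAE and naive. EAE is experimental autoimmune encephalomyelitis, an autoimmune model of multiple sclerosis, IGU is iguratimod, an antirheumatic drug, and the labels do not define p50. The labels give no age, dose, Cre driver or number of animals behind an array. Levels are log2(intensity + 16), a scale that understates changes of dim genes. The arrays' median intensities lay between 243.1 and 268.6. The knockout itself was not checked. The microglia markers had summed levels between 18.72 and 19.11 on the icKO arrays and between 18.91 and 19.23 on the FL arrays, with 9 of 10 markers named and all 9 tested. A summed level mostly follows the brightest genes of its list. Xist, transcribed from the inactive X chromosome of female cells, lay at 16.64 and 15.90 on the icKO and F/F p50 arrays and between 7.71 and 8.30 on the other 6, so the p50 state cannot be told apart from this difference in sex-linked expression.

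AP-1 is a family of dimeric transcription factors whose subunits join through a leucine zipper and bind DNA through an adjoining basic region. FOS proteins need a JUN partner, whereas JUN proteins can also pair with each other. Stimuli that activate MAP kinases switch on Fos, Fosb, Jun and Atf3 as immediate early genes, within minutes and without new protein synthesis. In microglia such genes respond to inflammatory signals and also to tissue dissociation and handling, and their products act on chemokine and cytokine genes.

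The promoters of the 4 members that varied most are shown. These genes shared their highest and lowest arrays, as did Jund, whose range was smaller (0.90) and whose promoter is not printed. The letters are the 250 bases before the RefSeq transcription start of the mouse build GRCm38.p6, written 5′ to 3′ on the strand of the gene. Capitals mark 2 motifs. TGACG, or CGTCA on the other strand, is the core of the cyclic AMP response element, and TGACATCA is a variant AP-1 site of the Jun promoter. The Fos gene lies at chr12:85473890-85477274, Fosb at chr7:19302696-19310118, Jun at chr4:95049036-95052222 and Atf3 at chr1:191170296-191183333. The Fos promoter lies at chr12:85473640-85473889 on the plus strand, the Fosb promoter at chr7:19310046-19310295, the Jun promoter at chr4:95052223-95052472 and the Atf3 promoter at chr1:191183334-191183583, the last 3 on the minus strand. The Fosb stretch overlaps the annotated gene, whose outermost start lies further upstream.
Fos: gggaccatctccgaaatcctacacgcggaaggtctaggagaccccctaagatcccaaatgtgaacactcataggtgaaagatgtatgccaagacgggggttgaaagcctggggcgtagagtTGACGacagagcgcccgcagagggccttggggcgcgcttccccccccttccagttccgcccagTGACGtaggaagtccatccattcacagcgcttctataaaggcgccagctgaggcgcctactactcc
Fosb: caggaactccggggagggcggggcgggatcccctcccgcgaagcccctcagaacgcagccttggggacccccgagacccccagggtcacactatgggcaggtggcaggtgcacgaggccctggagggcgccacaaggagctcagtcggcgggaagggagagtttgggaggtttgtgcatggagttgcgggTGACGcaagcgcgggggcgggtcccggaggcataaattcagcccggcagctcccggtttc
Jun: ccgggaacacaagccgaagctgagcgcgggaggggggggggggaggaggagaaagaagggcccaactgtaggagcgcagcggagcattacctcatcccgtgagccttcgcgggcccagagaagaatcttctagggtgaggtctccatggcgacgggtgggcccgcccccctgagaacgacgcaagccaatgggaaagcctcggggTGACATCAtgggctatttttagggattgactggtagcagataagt
Atf3: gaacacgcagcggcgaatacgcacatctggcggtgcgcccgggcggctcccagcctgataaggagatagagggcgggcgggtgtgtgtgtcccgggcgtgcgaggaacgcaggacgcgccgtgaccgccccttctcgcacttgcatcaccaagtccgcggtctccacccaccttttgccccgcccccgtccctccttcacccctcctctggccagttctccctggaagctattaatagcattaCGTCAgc
Fos holds TGACG 129 to 125 and 66 to 62 bases before the start, Fosb holds it 60 to 56 bases before, Jun holds TGACATCA 45 to 38 bases before, and Atf3 holds CGTCA 7 to 3 bases before. Over the same 250 bases of 32851 RefSeq promoter windows, searched on both strands, TGACG occurred in 17.77% and TGACATCA in 2.93%. The full response element TGACGTCA, which contains TGACG, occurred in 1.55% of windows, the classical AP-1 site TGACTCA in 4.46% and the CArG box, the site of serum response factor, in 1.47%. None of these last 3 motifs was found in the 4 printed stretches. Among the other members, 1 of the 3 Maff windows held TGACGTCA and another held TGACATCA, and Batf and Junb each held TGACG once. The windows of Jund and Fosl2 held none of the motifs. A match describes the letters only.

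Fosb, an immediate early partner of JUN proteins, had the widest range of the family. It lay at 14.86, 10.73, 12.08 and 12.95 on the icKO arrays of EAE p50, EAE IGU, EAE and naive, against 13.38, 10.38, 8.66 and 11.31 on the FL arrays of those states. Its highest and lowest arrays, icKO EAE p50 and FL EAE, stood 6.20 log2 units apart. In bulk RNA, fewer cells of a type and less RNA per cell cannot be told apart, so marker levels are given beside the results. Fos, the founding member of its subfamily, lay at 12.90, 10.08, 11.77 and 11.51 on those icKO arrays, against 11.34, 9.85, 8.40 and 10.61 on the FL arrays. It was low under iguratimod in both genotypes and lowest of all on the FL EAE array. Fosl2, which encodes the more slowly induced FOS relative FRA2, stayed between 7.46 and 7.75 on the icKO arrays and between 7.35 and 7.61 on the FL arrays, values that overlap.

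Jun, which encodes the partner of FOS in the classical AP-1 dimer, lay at 14.45, 11.43, 11.78 and 13.55 on the icKO arrays of EAE p50, EAE IGU, EAE and naive, against 13.04, 11.50, 10.12 and 12.20 on the FL arrays. It was highest on both p50 arrays and the icKO naive array. Jund, generally the least inducible JUN gene, lay at 8.65, 7.96, 8.19 and 8.46 on the icKO arrays and at 8.24, 8.01, 7.76 and 8.16 on the FL arrays. Its range of 0.90 was small, yet its lowest and highest arrays were those of Fos, Fosb, Jun and Atf3. Across all tested genes 1.46% were lowest on FL EAE and highest on icKO EAE p50. Jund lay below the line for testing on FL EAE, FL EAE IGU, icKO EAE IGU and FL naive (percentiles 36.3, 41.9, 43 and 47.5). It passed that line through brighter arrays, so its pattern rests in part on dim values.

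Atf3, a stress-induced factor that often represses inflammatory genes, lay at 12.77, 10.08, 10.57 and 10.64 on the icKO arrays of EAE p50, EAE IGU, EAE and naive, against 10.47, 9.73, 9.26 and 9.81 on the FL arrays. The icKO EAE p50 array stood 2.14 above the next highest, icKO naive. Batf, a factor best known for pairing with JUN and IRF proteins in lymphocytes and dendritic cells, stayed between 8.46 and 8.83 on the icKO arrays and between 8.48 and 8.82 on the FL arrays. Maff, a small MAF protein gene, lay between 6.42 and 6.72 on the icKO arrays and between 6.30 and 6.45 on the FL arrays. It was brighter than 2% to 5.3% of the named genes on each array, the dimmest of the measured members.

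**Figure D1:**
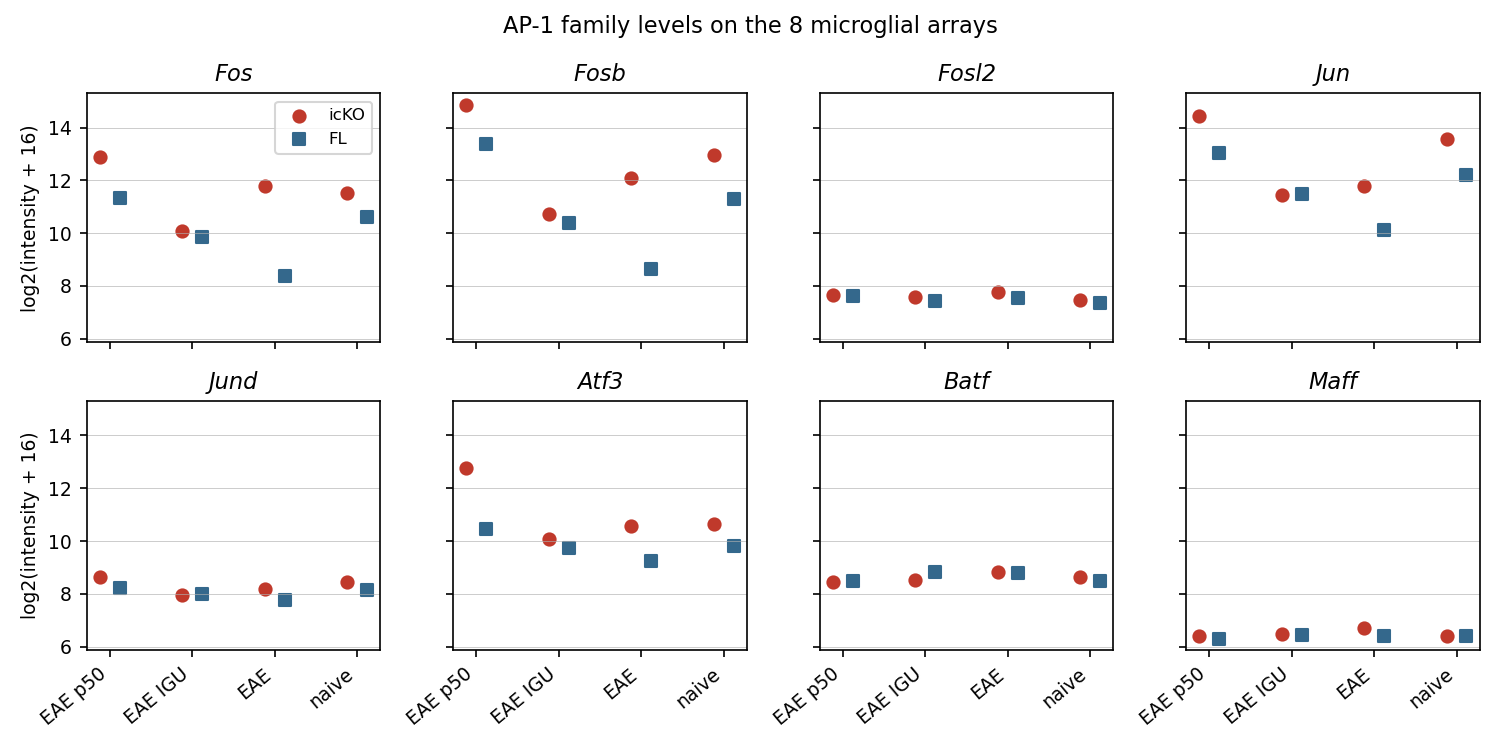
Levels of the 8 measured AP-1 members as log2(intensity + 16), 1 point per array, with states along the x axis and icKO (circles) beside FL (squares). Fos, Fosb, Jun and Atf3 spread over 3.52 to 6.20 log2 units, with icKO EAE p50 highest and FL EAE lowest, whereas Fosl2, Batf and Maff each stay within 0.41.

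The first question was whether the members differed between icKO and FL microglia. Fosb, Atf3 and Fos were brighter in icKO in 4 of 4 states, as were 4.9% of all tested genes, and Jun in 3 of 4 as deposited or in 4 of 4 once arrays were centred on their median. The additive limma model of state and genotype gave log2 differences of 1.72 ± 0.46 (SE, 8 arrays) for Fosb, 1.51 ± 0.49 for Fos, 1.20 ± 0.31 for Atf3 and 1.09 ± 0.29 for Jun, or 3.30-fold, 2.86-fold, 2.29-fold and 2.13-fold. None passed after Benjamini-Hochberg adjustment over all genes, with limma adjusted p of 0.868, 0.882, 0.859 and 0.868. The percentage of genes called was 0 (none of 18241). At an unadjusted p under 0.05 there were 992 genes (5.44%), these 4 members among them. Over the 4 state pairs an exact sign-flip permutation test, two-sided, cannot give a p below 0.125. Fosb, Fos and Atf3 gave that value, and Jun gave 0.25.

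Jund and Batf differed little, and Jund lay below the line for testing on arrays of both genotypes. Jund gave 0.27 ± 0.11 (95% interval -0.01 to 0.55, limma adjusted p = 0.882), and was lower in icKO under iguratimod as deposited (-0.06) but not after centring each array on its median (0.03). Batf gave -0.04 ± 0.11 (95% interval -0.30 to 0.22, limma adjusted p = 0.969).

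Within single states 1 array stood against 1 array, so sizes are given with no test. In EAE p50 the genotype difference was 2.31 for Atf3, 1.56 for Fos, 1.48 for Fosb and 1.41 for Jun. Genes at least 2-fold brighter in icKO made up 0.291% of tested genes in that state and at least 2-fold dimmer ones 0.0877%, and no tested gene had a larger difference than Atf3 in either direction. In EAE it was 3.42 for Fosb, 3.38 for Fos, 1.66 for Jun and 1.31 for Atf3, where 1.28% of genes were at least 2-fold brighter and 0.565% at least 2-fold dimmer in icKO. In the naive pair Fosb (1.64) and Jun (1.35) were over 2-fold brighter in icKO, against 0.263% of genes that were so and 1.63% that were 2-fold dimmer, and Fos (0.89) and Atf3 (0.82) were under it. Under iguratimod no member reached 2-fold: Atf3 gave 0.35, Fosb 0.34, Fos 0.23 and Jun -0.07, and Jun gave 0.02 once arrays were centred on their median. In that state 1.26% of genes were at least 2-fold brighter in icKO and 1.95% at least 2-fold dimmer. The members that had the widest genotype gaps in the other states were thus nearly level between genotypes under iguratimod.

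**Figure D2:**
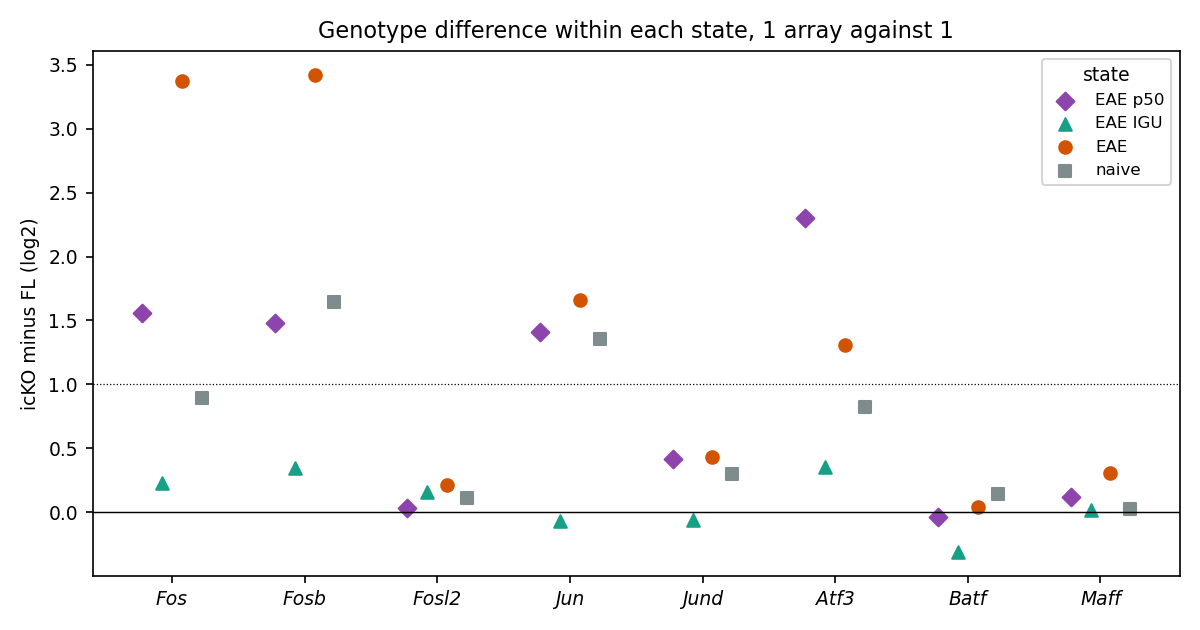
Genotype difference of each measured member (icKO minus FL, log2, y axis) in each state, 1 symbol per pair of arrays; the dotted line marks 2-fold. Fos and Fosb differ most in EAE (3.38 and 3.42), Atf3 most in EAE p50 (2.31), and in EAE IGU no member exceeds the 0.35 of Atf3.

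Whether the genotype difference in 1 state departed from that shared by the other 3 was tested with limma, leaving 2 residual degrees of freedom. Fos and Fosb had an additional difference in EAE of 2.48 ± 0.52 and 2.27 ± 0.55 (limma adjusted p = 0.822 for both, unadjusted p = 0.00486 and 0.00885). Jun had a smaller difference in EAE IGU, by -1.54 ± 0.22 (limma adjusted p = 0.544, unadjusted p = 0.00118), and Fosb by -1.84 ± 0.83 (limma adjusted p = 0.635). Atf3 had an additional difference in EAE p50 of 1.48 ± 0.41 (limma adjusted p = 1, unadjusted p = 0.0169). None passed, and limma called 0 genes in any of these 4 comparisons. At an unadjusted p under 0.05 they held 5.97% of genes for EAE, 8.23% for EAE IGU, 2.34% for EAE p50 and 5.48% for naive.

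The second question was how the members differed between disease states. Against EAE, the EAE p50 arrays were brighter for Fosb by 3.75 ± 0.65 (13.5-fold, limma adjusted p = 0.0487) and for Jun by 2.80 ± 0.41 (6.94-fold, limma adjusted p = 0.035), the 2 of 6 tested members that passed. In this comparison 2.71% of tested genes were called, 1.09% higher and 1.62% lower, and 19.5% had an unadjusted p under 0.05. Both p50 arrays exceeded both EAE arrays for these genes, as for 26.4% of all tested genes. Microglia markers moved with them: 8 of 9 were brighter, with a median of 0.88, and Tmem119, a marker of resident microglia, rose by 0.90 ± 0.16 (limma adjusted p = 0.0482). All 8 tested monocyte and macrophage markers were dimmer, with a median of -1.497, and Ly6c2, an inflammatory monocyte marker, fell by 4.41 ± 0.40 (limma adjusted p = 0.00828). The 9 tested neutrophil markers were dimmer too, with a median of -3.61 and none passing. The part of these cells in the Fosb and Jun differences was not tested. The other members did not pass: Fos gave 2.04 ± 0.69 (limma adjusted p = 0.187), Atf3 1.71 ± 0.44 (0.106), Jund 0.47 ± 0.16 (0.187) and Batf -0.33 ± 0.15 (0.296). The Fosb difference was 2.78 in icKO and 4.72 in FL, and that of Jun 2.67 in icKO and 2.92 in FL. Without the FL EAE array both calls were lost (Fosb 2.62, limma adjusted p = 0.1; Jun 2.41, limma adjusted p = 0.13), as they were without either p50 or either naive array, and Jun also without the icKO EAE array.

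Against naive, the EAE p50 arrays gave 1.99 ± 0.65 for Fosb (limma adjusted p = 0.176), 1.40 ± 0.44 for Atf3 (0.162), 1.06 ± 0.69 for Fos (0.44) and 0.87 ± 0.41 for Jun (0.299). No member passed, where 0.751% of genes were called. The size for Atf3 was 2.14 in icKO and 0.65 in FL, whereas that of Jun was 0.90 in icKO and 0.84 in FL. All 4 genes were thus brighter on each p50 array than on the naive array of the same genotype.

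Jun and Fosb were dimmer in EAE than in naive, without passing. Against naive, EAE gave -1.93 ± 0.41 for Jun (limma adjusted p = 0.0693), -1.76 ± 0.65 for Fosb (0.223), -0.98 ± 0.69 for Fos (0.502) and -0.31 ± 0.44 for Atf3 (0.739). No member passed, where 3.77% of genes were called and 19.2% had an unadjusted p under 0.05. Jun was dimmer in EAE by a similar size in both genotypes, -1.77 in icKO and -2.08 in FL. Fos was 0.27 brighter in icKO but gave -2.22 in FL. In the same comparison all 8 tested monocyte and macrophage markers were brighter, and 3 of them passed. These were Ly6c2 by 4.32 ± 0.40, Ms4a4c by 2.61 ± 0.38 and Chil3 by 2.24 ± 0.38 (limma adjusted p = 0.0192, 0.0304 and 0.0411). The 9 tested neutrophil markers were brighter too, none passing, with S100a8 at 5.70 ± 1.38. The 9 microglia markers had a median of -0.43, 1 of them above zero and none passing. Whether Jun passed depended on the genes and arrays used: with a filter at the 70th percentile its adjusted p was 0.0406, and without either iguratimod array 0.0223.

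Iguratimod against EAE gave no called gene by limma (0 of 18241, percentage called 0, with 1551 or 8.5% at an unadjusted p under 0.05). Averaged over the genotypes, Jun gave 0.51 ± 0.41 (95% interval -0.50 to 1.52), Fosb 0.18 ± 0.65, Atf3 -0.01 ± 0.44 and Fos -0.12 ± 0.69. The genotypes were opposed: Fosb gave -1.36 in icKO and 1.73 in FL, and Fos gave -1.69 in icKO and 1.45 in FL. Jun gave -0.35 in icKO and 1.38 in FL. On the iguratimod arrays the genotypes lay close together, between their EAE values. Against naive, the iguratimod arrays gave -1.57 ± 0.65 for Fosb (limma adjusted p = 0.472), -1.41 ± 0.41 for Jun (0.303) and -1.09 ± 0.69 for Fos (0.678). The 1 gene called there (0.00548% of those tested) was Mki67, a marker of dividing cells, named after its value was seen. These state comparisons share arrays: EAE enters 3 of them and naive 3, so their values are not independent.

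**Figure D3:**
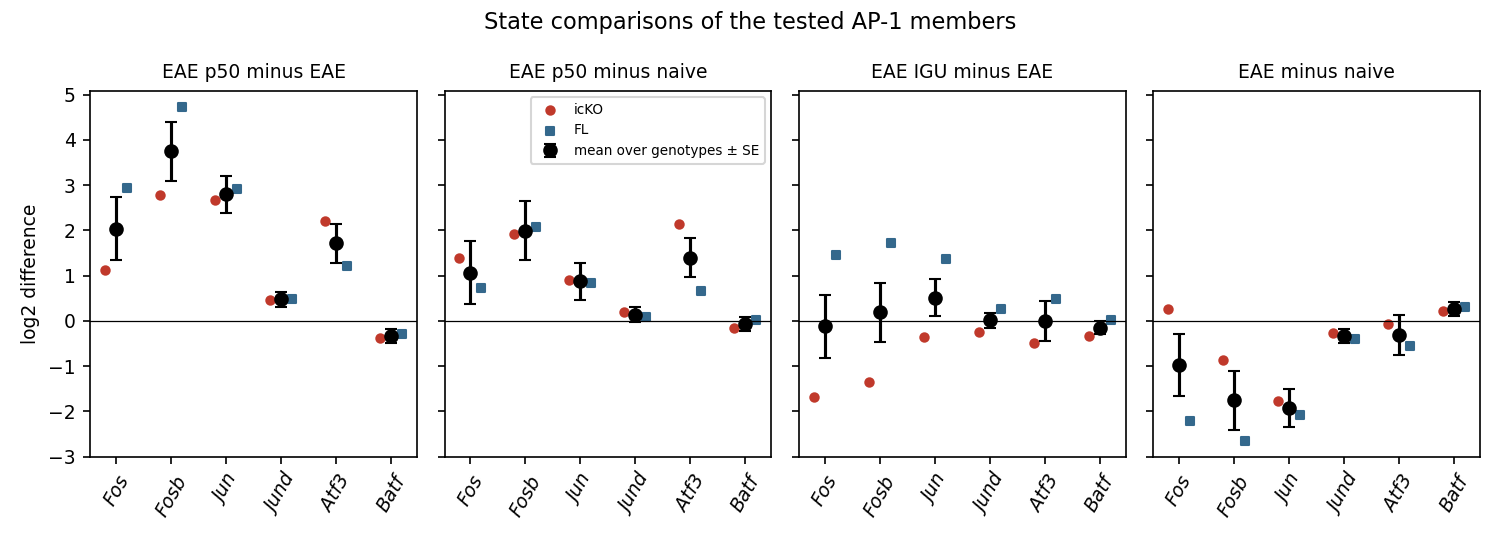
State comparisons of the 6 tested members on the log2 scale, with the limma estimate over both genotypes (black, bars are SE) and the difference within icKO (red circles) and FL (blue squares). EAE p50 lies above EAE for Fosb (3.75) and Jun (2.80), and EAE lies below naive for Jun (-1.93). Iguratimod against EAE has opposite signs in the 2 genotypes for all 6 members, with the widest gaps for Fos and Fosb.

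Other genes of the pathway moved less than Fos, Fosb, Jun and Atf3, as did Fosl2, Jund, Batf and Maff among the members. The members and lists were chosen with earlier results of these data known, so this contrast can follow from that choice. Of 16 further AP-1 relatives and bZIP partners, 12 were tested and none passed limma in the genotype or any of the 5 state comparisons. Their median genotype difference was 0.05, against -0.02 over all tested genes. Atf4, an effector of the integrated stress response, gave 0.26 ± 0.10 (limma adjusted p = 0.882). Of 21 kinases and activators upstream of AP-1, 14 were tested and none passed, with a median genotype difference of 0.03. Mapk14, which encodes the p38 alpha kinase, gave 0.77 ± 0.20 for EAE p50 against EAE (limma adjusted p = 0.106).

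Of 20 genes known as AP-1 targets, 15 were tested. For genotype their median was 0.35 and none passed. They were brighter in icKO in 12 of 15 cases in EAE p50, 11 in EAE IGU, 14 in EAE and 6 in naive, with medians of 0.40, 0.37, 0.79 and -0.04. The same pairs had medians between -0.02 and -0.01 over all tested genes. Ccl3, a chemokine that attracts monocytes, lay at 15.92, 14.53, 15.86 and 15.18 on the icKO arrays of EAE p50, EAE IGU, EAE and naive, against 13.89, 13.78, 12.31 and 12.83 on the FL arrays. In EAE p50 against EAE, the targets' median was -0.17, and Ccl2 (-1.91 ± 0.52) and Il1b (-1.90 ± 0.50), which encodes interleukin 1 beta, were dimmer without passing (limma adjusted p = 0.119 and 0.113), while Fosb and Jun rose. In EAE against naive 1 target passed, Ccl2, brighter by 2.93 ± 0.52 (limma adjusted p = 0.0439), while Jun was dimmer. All but 1 of the 15 tested targets were brighter there, among them Il1b (2.30) and Itgax (2.13) without passing. A further 705 tested genes whose promoter stretch held TGACTCA or TGACGTCA had median differences of -0.01 for genotype, -0.01 for EAE p50 against EAE and 0.01 for EAE against naive, against -0.02, -0.02 and 0.01 over all tested genes.

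Immediate early genes outside AP-1, which also respond to tissue handling, moved alongside the members. Of 20 listed, 16 were tested, and they were brighter in icKO in 15 of 16 cases in EAE p50, 11 in EAE IGU, 15 in EAE and 14 in naive, with medians of 0.71, 0.17, 0.97 and 0.53. None passed limma, for genotype or for EAE p50 against EAE, where 14 of 16 were brighter within each genotype. Their summed level was 18.62, 16.96, 17.71 and 18.06 on the icKO arrays of EAE p50, EAE IGU, EAE and naive, against 18.05, 16.72, 15.23 and 17.39 on the FL arrays. That sum mostly follows 1 gene, Dusp1. It lay at 18.43, 16.68, 17.48 and 17.86 on the same icKO arrays, against 17.87, 16.41, 14.56 and 17.19 on the FL arrays. Heat shock genes, a second mark of handling stress, had 10 of 13 members named and 8 tested. They were brighter in icKO in 5, 7, 8 and 5 of 8 cases in those states, with medians of 0.08, 0.35, 0.22 and 0.32. Hspa1a, the inducible HSP70 gene, rose by 1.06 ± 0.17 in EAE p50 against EAE (limma adjusted p = 0.0422), the 1 heat shock gene that passed. It lay between 7.92 and 9.29 on the icKO arrays, against 7.49 to 8.33 on the FL arrays. Its EAE values, 7.92 in icKO and 7.58 in FL, were dim, below those of Jund (percentiles 51.2 and 36.3 there). Hspa1a passed the line for testing through brighter arrays, so its call rests on dim EAE values. Its genotype difference was 0.96, 0.51, 0.35 and 0.69 in EAE p50, EAE IGU, EAE and naive, with its smallest value in EAE. Hsp90aa1, an inducible HSP90 gene, gave 0.54, 0.09, 0.93 and 0.61, with its largest value in EAE and its smallest under iguratimod. Handling stress can act on genes of these kinds, and its part in the AP-1 differences was not tested.

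Genes with like profiles were sought for Fos, Fosb, Jun and Atf3, the 4 members whose range over the arrays was at least 2 log2 units, leaving out predicted genes and small RNAs. Likeness was the mean absolute difference from the member over the 8 arrays after each profile was centred on its mean, and arrays of 1 genotype or state share their source. Closest to Fos were Rgs1, a regulator of G protein signalling (0.27 log2 units), Dusp1, a phosphatase that switches off MAP kinases (0.34), and Jun (0.39), against a median of 1.07 over all tested genes. Closest to Jun were Fos (0.39), Rgs1 (0.41) and Dusp1 (0.42), against a median of 1.08. Fosb lay nearest to Jun (0.61), Fos (0.62) and Rgs1 (0.67), against a median of 1.52. Atf3 lay nearest to Tagap, a GTPase activating protein gene of activated lymphocytes (0.28), Btg2, an antiproliferative gene (0.31), and Egr1, a zinc finger immediate early gene (0.32). The members lay further from it, Jund at 0.51, Fos at 0.55, Jun at 0.59, Batf at 0.73 and Fosb at 0.86. The median for Atf3 over all tested genes was 0.71. Rgs1 lay at 12.94, 10.88, 12.21 and 12.74 on the icKO arrays of EAE p50, EAE IGU, EAE and naive, against 12.02, 10.95, 9.04 and 11.12 on the FL arrays.

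Markers of other cells also moved between the arrays. Neutrophil markers, 10 of 10 named, had summed levels of 13.70, 17.02, 16.65 and 12.71 on the icKO arrays of EAE p50, EAE IGU, EAE and naive, against 12.65, 15.33, 19.78 and 14.68 on the FL arrays. Monocyte and macrophage markers, 9 of 10 named, summed to 12.20, 13.61, 14.78 and 11.46 on the icKO arrays, against 11.89, 12.44, 14.73 and 11.79 on the FL arrays. The FL EAE array, lowest for Fos, Fosb, Jun, Jund and Atf3, was thus the highest for neutrophil markers. Its microglia markers summed to 18.96, as did those of the FL naive array, a sum led by Cx3cr1 (18.27 and 18.26). Of the 9 markers, 4 were higher on FL EAE than on FL naive, with a median difference of -0.04. Among the lower ones, Gpr34 lay at 12.25 on FL EAE against 13.13 on FL naive, and Fcrls at 12.62 against 13.32. Over the same pair of FL arrays Fosb gave -2.65, Fos -2.22 and Jun -2.08. Without the FL EAE array, the genotype difference was 0.89 for Fos, 1.15 for Fosb, 0.90 for Jun and 1.16 for Atf3 (limma adjusted p = 0.809 for each), the same as without the icKO EAE array, since either leaves 3 genotype pairs. T cell markers (8 of 10 named) summed to between 11.41 and 11.64 on the icKO arrays and between 11.41 and 11.65 on the FL arrays, sums led by Il7r. Cd3e lay at 9.09 on the icKO EAE array against 8.21 on the FL EAE array. In EAE against naive Cd3e gave 0.62, Cd3d 0.56 and Il7r -0.31, none passing. B cell markers (5 of 6 named) summed to 13.76 to 14.29 in icKO, against 13.90 to 14.11 in FL. Oligodendrocyte markers (7 of 8 named) summed to 10.37 to 10.49 in icKO and 10.39 to 10.46 in FL, and only 1 of them was bright enough to be tested. Sums for astrocyte markers were 10.50 to 10.86 in icKO and 10.53 to 10.95 in FL, for endothelial markers 10.09 to 10.18 and 10.08 to 10.18, and for neuron markers, none of which was tested, 9.74 to 9.91 and 9.79 to 9.91. No marker was at 0, since every intensity includes background. The part of leukocytes in the AP-1 differences was not tested.

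**Figure D4:**
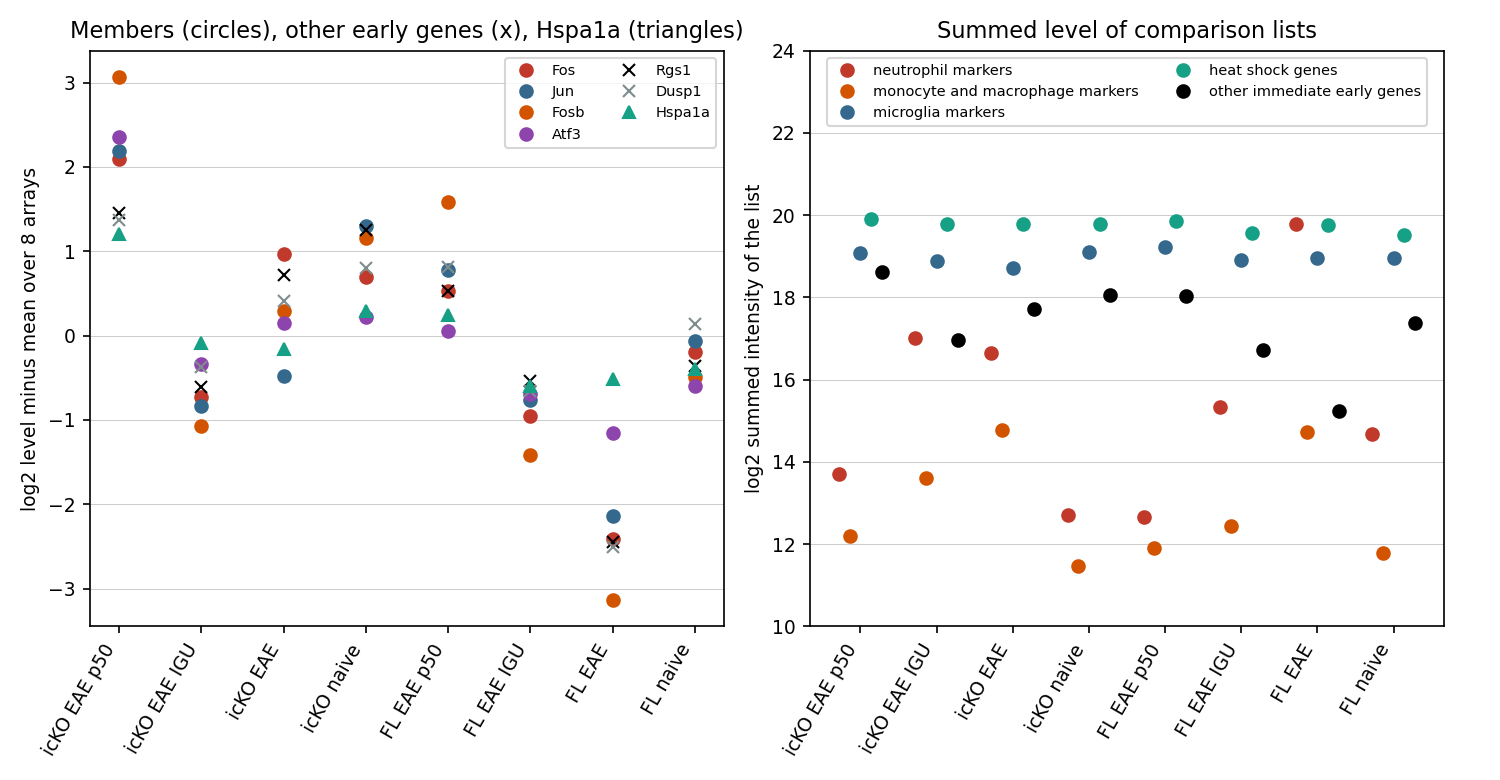
Left, log2 levels minus the gene's mean over the 8 arrays (y axis) on each array (x axis) for 4 members (circles), Rgs1 and Dusp1 (crosses) and Hspa1a (triangles); right, log2 summed intensity of 5 gene lists on the same arrays. The members, Rgs1 and Dusp1 are lowest on FL EAE, the array on which neutrophil markers reach 19.78. Dusp1 leads the sum of the other immediate early genes, and Hspa8 that of the heat shock genes.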

How the data were processed

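Total RNA was labelled for Affymetrix whole-transcript arrays, per the labels' protocols. The authors used Affymetrix Expression Console, per the submitters' processing notes. As deposited, the table holds a linear intensity for each of 65956 probe sets on 8 arrays. Their summarisation and normalization are not given in the sources used here, and they were not normalized further. Of the probe sets, 31269 carried 1 gene symbol, 1481 several (not used) and 33206 none here. Symbols were updated through RefSeq (GRCm38.p6) in 1135 cases. The 441 genes with several probe sets were represented by the brightest.

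Log2(intensity + 16), computed from the deposited values, was fitted with limma 3.58.1 (R 4.3.3; lmFit, eBayes), with state and genotype as additive terms. This left 3 residual degrees of freedom (prior SD 0.16), with Benjamini-Hochberg adjustment over 18241 genes and a threshold of 0.05. A genotype effect that differs between states counts as spread in this fit. With 1 array a group, p-values rest on departures from additivity, and their precision is limited by how few arrays there are. The fits were tested on simulated data. The targeted gene is not reported here. All members are named. Other genes were named if they passed, ranked in the top 3 of their list by size, were most like a member or led a summed level. The members and lists were chosen with earlier results of these data known. Alternatives were other filters, pseudocounts, scalings, probe-set rules and priors, and leaving out arrays.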

Additional observations from a re-analysis of the deposited data

Results flagged for a closer look

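For every tested member the difference between iguratimod and untreated EAE had opposite signs in the genotypes. Fos and Fosb were picked out because this difference was over 0.5 log2 units in size in each genotype. For Fos it was -1.69 in icKO and 1.45 in FL, and for Fosb -1.36 in icKO and 1.73 in FL. Each value is 1 array against 1 array, and the difference between the genotypes in this comparison was not tested. The nearest fit, of the genotype difference in EAE against that in the other states, gave a limma adjusted p of 0.822 for both genes.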

How the results depend on the processing

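Genotypes were compared within states throughout, and pairing by replicate number was not possible because each group holds 1 array. The genotype, iguratimod against EAE and single-state genotype fits called 0 genes in every alternative run. The calls of Fosb and Jun in EAE p50 against EAE (2 members) became 0 with no filter (adjusted p = 0.0726 and 0.0521) and 1 after a further quantile normalization, when Fosb had an adjusted p of 0.0541. Leaving out single arrays gave 0 to 2 members and 67 to 427 genes, against 494. In EAE against naive the members called were 1 (Jun) with the 70th percentile filter and 0 to 1 without single arrays. The genes called there were 688, with 207 after quantile normalization, 231 without both p50 arrays and 0 to 603 without single arrays. EAE IGU against naive called 3 genes with the 70th percentile filter, 0 without both p50 arrays and 0 without any single array. EAE p50 against naive called 137, with 366 under the 70th percentile filter, 387 after median centring and 50 to 219 without single arrays. At least 2-fold lower genes in icKO EAE p50 were 16, with 25 and 7 at pseudocounts of 1 and 64, and at least 2-fold higher genes in icKO naive were 48, or 84 after quantile normalization.

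Signs turned only for differences that did not pass. A term below is the genotype difference of 1 state beyond that of the others. After quantile normalization, iguratimod against EAE was 0.0736 for Atf3 and -0.0443 for Jund (-0.0338 after median centring), the naive term of Fosb was 0.17 and the EAE p50 term of Batf -0.0336. Median centring gave EAE p50 terms of -0.0627 for Batf and -0.0048 for Fos. Without single arrays, iguratimod against EAE ran from -0.57 to 0.56 for Atf3, -0.33 to 0.0287 for Batf, -1.36 to 1.12 for Fos, -0.95 to 1.32 for Fosb, -0.26 to 1.28 for Jun and -0.21 to 0.23 for Jund. Iguratimod against naive ran from -0.88 to 0.24 for Atf3 and -0.0681 to 0.29 for Batf, EAE against naive from -2.22 to 0.27 for Fos, and EAE p50 against naive from -0.19 to 0.0529 for Batf. The EAE term ran from -0.26 to 0.72 for Atf3 and -0.0103 to 0.22 for Batf. The EAE p50 term ran from -0.13 to 0.0949 for Batf, -0.57 to 0.998 for Fos, -1.05 to 0.49 for Fosb and -0.10 to 0.77 for Jun. The naive term ran from -0.81 to 0.73 for Fosb, -0.18 to 0.68 for Jun and -0.12 to 0.12 for Jund. The genotype difference of Batf ran from -0.10 to 0.0476. Those of Fos (0.89 to 1.94), Fosb (1.15 to 2.18), Jun (0.90 to 1.47) and Atf3 (0.83 to 1.48) kept their sign without any single array. Where an array is left out, its lone partner is assumed to vary like the other groups. The cause of these shifts was not tested.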

Other observations

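Among all 18241 tested genes, 20 (0.11%) were at least 2-fold brighter in icKO in both EAE p50 and EAE, a choice of states made after the values were seen. They include Fos, Fosb, Jun and Atf3. The others of the kinds named here were the chemokine genes Ccl2, Ccl3 and Ccl4, the interleukin 1 alpha gene Il1a, the zinc finger factor Klf6, the helix-loop-helix inhibitor Id2, the linker histone gene H1f2, the extracellular protease gene Adamts1 and an antigen receptor segment, Trav16d-dv11. The remaining 7 were predicted genes and small RNAs. For Il1a the genotype difference was 1.02 in EAE p50, 0.06 in EAE IGU, 1.60 in EAE and 1.25 in naive, and for Klf6 it was 1.36, 0.21, 1.15 and 1.55. Both were close to level under iguratimod, but others of the 20 were less so: the small RNA Snord14e gave 1.45, Ccl3 0.74, H1f2 0.69 and Ccl4 0.67. The list was chosen by its differences in EAE p50 and EAE, so smaller ones in other states can follow from that choice. Ccl2 gave 1.25, 0.65, 2.84 and 0.80. Of the 20, 8 (0.0439% of tested genes) were at least 2-fold brighter in naive as well, among them Fosb, Jun, Ccl3, Klf6, Il1a and H1f2.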
